A study of Mus musculus with 4 samples.

Results

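In all, 10 genes of cellular calcium handling were followed in mouse 3T3-L1 preadipocytes that were induced to become adipocytes with or without the plant alkaloid berberine. They encode the 3 calcium pumps of the endoplasmic reticulum (Atp2a1, Atp2a2 and Atp2a3), 2 pumps of the plasma membrane (Atp2b1 and Atp2b4), the 3 inositol trisphosphate receptors (Itpr1, Itpr2 and Itpr3), and the store sensor Stim1 with the plasma membrane channel Orai1. Members were all probes that the platform annotation gives to these 10 genes, 15 probes among 26408 fitted, in a table that covers 17734 named genes. The members were selected on the Atp2a3 signal, which was much higher with berberine, so the values of the members in the comparison of berberine with control are a description, given with standard errors and without p-values.

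The berberine group held 2 samples of 3T3-L1 cells that received the adipogenic mixture together with 13.47 µM berberine for 48 hours. The control group held 2 samples given the mixture alone for 48 hours. Both groups received the mixture, which consisted of insulin (1 µg/ml), dexamethasone (1 µM) and isobutylmethylxanthine (0.5 mM), so neither group shows uninduced cells. 3T3-L1 is an established mouse line of fibroblast-like preadipocytes, and the labels do not tell whether the 2 samples of a group were separate cultures. Spread between arrays may therefore be technical. Each sample's Cy5-labelled RNA was read on 1 array.

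Calcium enters the endoplasmic reticulum through SERCA pumps, which spend ATP to move it from the cytosol into the lumen. Inositol trisphosphate receptors let it out again when a surface receptor activates phospholipase C, and when the store runs low STIM1 in the reticulum membrane opens ORAI1 in the plasma membrane, an influx called store-operated entry. Plasma membrane pumps then export calcium from the cell. Calcium signals of this kind are known to influence early adipocyte differentiation.

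Values are quantile-normalized log2 intensities unless called deposited intensities, which are the linear numbers of the table. A change is berberine minus control on that log2 scale. A probe was called when limma's adjusted p was under 0.05 over all 26408 probes. The floor is the 25th percentile of an array, 6.58 on the log2 scale or an intensity of 95.8, and a fold against a group under it is written as "at least". On bulk RNA, fewer cells of a type and less RNA per cell cannot be told apart.

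Both groups carried preadipocyte and adipocyte transcripts, and the adipocyte ones were mostly lower with berberine. Of 10 adipocyte markers, 7 were above the floor with berberine and 8 in control, and the probes of Pparg, the master regulator of adipogenesis, and Lpl, lipoprotein lipase, lay under it in both groups. Adipoq, which encodes the adipocyte hormone adiponectin, was at 10.52 and 10.57 on the berberine arrays and 17.56 and 17.47 on the control arrays (adjusted p = 5.77e-05). Fabp4, the adipocyte fatty acid binding protein, was at 14.72 and 14.82 with berberine and 17.55 and 17.63 in control (adjusted p = 0.000193). Of 10 measured adipocyte markers 2 rose and 6 fell, and Pparg was among the rises, from signals under the floor. Of 8 measured preadipocyte and fibroblast markers 4 rose and 3 fell. The rises, of Pdgfrb, Col1a1, Col1a2 and Cd34, were 1.51-fold to 2.81-fold. Fn1 fell at least 326-fold to under the floor, Dlk1 3.09-fold and Pdgfra 1.99-fold, and another Dlk1 probe was not called. The summed normalized intensity of the adipocyte list was 32030 and 34003 with berberine and 586877 and 562362 in control. Changes were widespread: of all probes, 44.8% were called, 7164 higher and 4674 lower, and the lower ones were 39.5% of these, a share of 64.2% in the deposited values and 23.6% after centring on the array median. The median change of all probes was 0.17. In the deposited values it was -0.05, with centred arrays 0.52 and with 75th percentile scaling 0.26.

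Among the 15 member probes, 6 were called higher and 5 lower with berberine, and 4 were not called. Of all probes, 27.1% were called higher and 17.7% lower, and since the members were picked in this comparison nothing is read from their count. The groups did not overlap at 13 of the 15 probes, with berberine above control at 6 and below it at 7, and among all probes these shares were 74.8%, 46.6% and 28.2%. With at least a 2-fold change in addition, 1 member probe was higher and 4 were lower, against 10.8% and 11.1% of all probes. Fewer member probes were called without berberine replicate 1 or without berberine replicate 2, where the spread comes from the control arrays alone. In the same settings 16.4% and 17.5% of all probes were called. The 6 member calls lost in both settings were those of Atp2a1, Atp2a2 (brightest probe), Atp2b4, Itpr1, Itpr2 and Orai1. The changes at these probes moved little. Without berberine replicate 1 and 2, that of Itpr1 was 0.72 and 0.68, and that of Itpr2 was 0.93 and 0.87. Signal was above the floor at 14 of the 15 probes in berberine samples and at 14 in control samples.

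**Figure D1:**
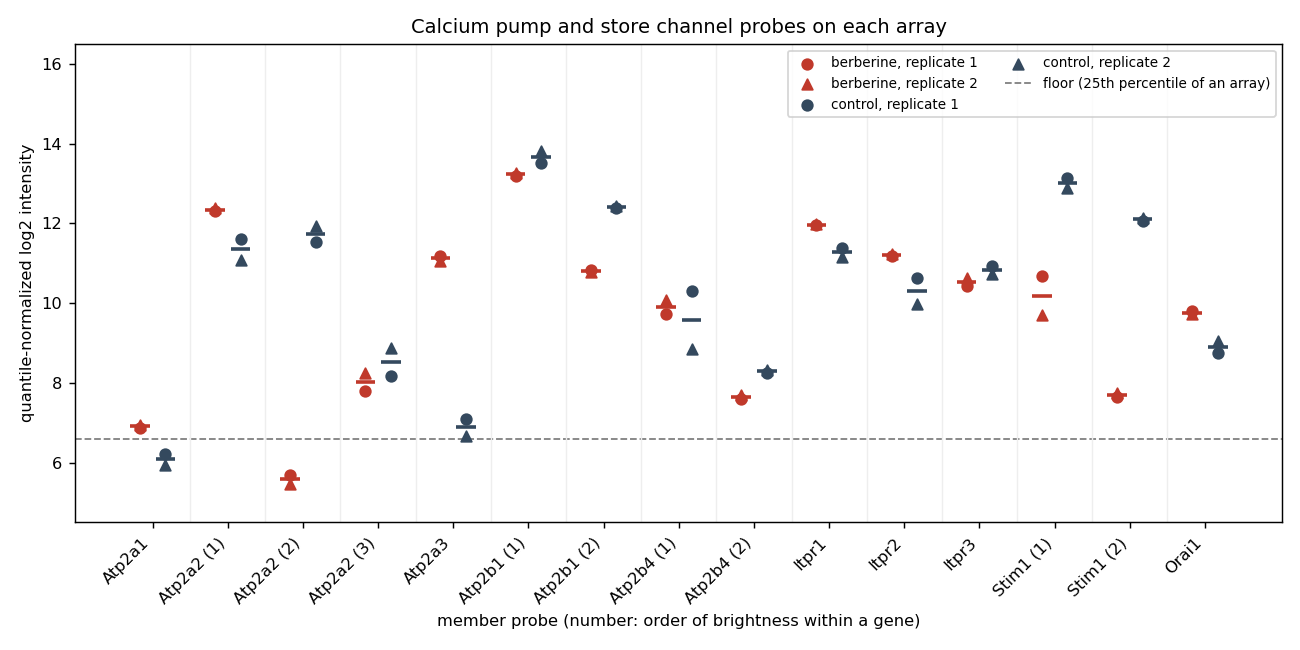
Quantile-normalized log2 intensity (vertical axis) of the 15 member probes (horizontal axis) on each array, with berberine arrays in red at the left of each pair, control arrays in dark blue at the right, circles for replicate 1, triangles for replicate 2 and short bars for group means (n = 2). The 2 berberine points of Atp2a3 lie near 11.1 and its control points near 6.9, while the second Atp2a2 probe lies under the dashed floor of 6.58 with berberine alone.

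The endoplasmic reticulum pump Atp2a3 had the highest rise among the members. Atp2a3 encodes SERCA3, a form known mainly from blood cells, platelets, endothelial cells and some epithelia. The deposited intensities were 1983 and 2010 on the berberine arrays and 163 and 106 on the control arrays. After normalization Atp2a3 read 11.19 and 11.05 with berberine and 7.09 and 6.68 in control, so both control values were close to the floor and both berberine values were far above it. The change was 4.23 (SE 0.18), an 18.8-fold difference of group means of 11.12 ± 0.093 and 6.89 ± 0.29 (SD, n = 2 each). Only 5 of 26408 probes, Atp2a3 included, had a rise of that size, 0.0189% of all, and rises of at least 8-fold were seen at 0.110%. The members were picked on this rise, so its place among all probes is a description only. Without scaling the change was 3.92, with centred arrays 4.49 and with 75th percentile scaling 4.23. Atp2a3 has 1 probe here, so no other probe of the gene could be set beside it.

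The promoters of Atp2a3 and Stim1 are shown because among the members these genes carry the largest rise and the largest fall shared by all probes of a gene. Each run is the 250 bases before an annotated start in RefSeq on GRCm38.p6, at chr11:72960919-72961168 for Atp2a3 and chr7:102267569-102267818 for Stim1, both on the plus strand. Capitals mark the GC box GGGCGG on either strand, the letters bound by Sp1-type factors.
Atp2a3: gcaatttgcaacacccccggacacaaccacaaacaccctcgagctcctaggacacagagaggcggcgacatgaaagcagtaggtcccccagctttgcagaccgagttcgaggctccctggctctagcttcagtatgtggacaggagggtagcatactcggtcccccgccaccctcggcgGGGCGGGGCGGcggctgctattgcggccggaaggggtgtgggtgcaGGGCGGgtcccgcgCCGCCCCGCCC
Stim1: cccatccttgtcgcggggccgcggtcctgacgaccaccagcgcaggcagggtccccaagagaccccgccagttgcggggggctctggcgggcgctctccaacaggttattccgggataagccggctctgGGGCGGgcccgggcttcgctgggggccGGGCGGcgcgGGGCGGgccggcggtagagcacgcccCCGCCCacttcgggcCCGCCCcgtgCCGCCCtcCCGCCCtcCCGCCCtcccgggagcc
Overlapping matches counted, Atp2a3 held 5 GC boxes and Stim1 held 8, and 32.7% of 32851 promoter windows of the same length held at least 1. Among the other member windows, Itpr2 held 4, Atp2b1 4 and 3, Orai1 3 and Itpr3 1, while Atp2b4 and Atp2a1 held 0. G and C made up 66.8% of the Atp2a3 window and 78.4% of the Stim1 window, against a median of 52.4% over all windows. CpG pairs numbered 20 in Atp2a3 and 31 in Stim1, against a median of 6 over all windows. Neither window held the cAMP response element TGACGTCA (1.55% of all windows), the C/EBP letters TTNNGNAA (36.8%), the CCAAT box (33.8%) or the NFAT core GGAAA (55.6%), on either strand. The E-box CANNTG (66.2% of all windows) occurred 1 time in Stim1 and was not found in Atp2a3. These are letter matches only. The cAMP response element and the C/EBP letters were also absent from the other member windows. The reference table held 9 windows for 8 of the 10 members, and Atp2a2 and Itpr1 were not analysed here in this way.

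Atp2a2, the widely expressed SERCA2 pump that serves most cells, gave opposite readings at its 3 probes. At the brightest (mMR030883) the berberine arrays read 12.30 and 12.38 and the control arrays 11.62 and 11.09, a change of 0.99 (SE 0.21), or 1.98-fold higher. At the next (PH_mM_0016288) the berberine arrays read 5.69 and 5.47 and the control arrays 11.54 and 11.95, at least a 35.8-fold difference downward, and the deposited intensities were 43 and 58 with berberine and 3703 and 3514 in control. At the dimmest (PH_mM_0007334) the berberine arrays read 7.79 and 8.24 and the control arrays 8.16 and 8.88. The groups overlapped at that probe after normalization, while at the other two they were apart in opposite directions. Its deposited intensities did not overlap, at 168 and 270 with berberine and 384 and 521 in control, and it was called lower in the deposited values (change -1.07) and with the replicate block. The changes of the 3 probes span 7.15 log2 units, from -6.16 to 0.99. Among 2276 genes with several probes the median span was 0.80, and 6 genes, Atp2a2 included, reached a span this wide. Calls in both directions within 1 gene were made at 12.5% of these genes. No single direction for Atp2a2 can be given from this array.

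Atp2a1 encodes SERCA1, the pump of fast skeletal muscle. Its probe read 6.88 and 6.94 with berberine and 6.22 and 5.95 in control. Both control values lay under the floor and both berberine values just above it, so the difference is at least 1.26-fold, and the signal was dim in every sample.

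Marker lists of other cells in which SERCA1 and SERCA3 are known were read on the same arrays. Of all genes, 30.0% were called higher and 18.2% lower. Of 10 measured blood cell and platelet markers, 5 rose and 2 fell, with 8 above the floor in each group and a summed intensity of 10809 and 11576 with berberine against 7862 and 7714 in control. Cd3e was the brightest of these markers, at a mean of 12.87 with berberine and 12.40 in control, and weighs most in that sum. Ptprc, the pan-leukocyte marker CD45, was at a mean of 8.37 with berberine and 8.28 in control (adjusted p = 0.646). Among the rises, named like those below after their values were seen, the platelet genes Gp1bb and Pf4 were 3.02-fold and 2.32-fold higher. Another Gp1bb probe was called lower (change -1.14). The 2 markers that fell were Itga2b, from signals under the floor in both groups, and Cd68, which was 1.65-fold lower. Of 7 endothelial markers 3 rose and 0 fell, with a summed intensity of 2343 and 2205 with berberine against 1334 and 1827 in control, and Pecam1, which marks endothelial cells, was at 8.06 and 7.95 on average (adjusted p = 0.530), while Cdh5, the endothelial cadherin, rose 2.43-fold. Of 7 measured skeletal and cardiac muscle markers 4 rose and 0 fell, with a summed intensity of 4921 and 4904 with berberine against 2514 and 2084 in control, and Acta1, skeletal actin, was at 7.43 and 7.35 (adjusted p = 0.707), while the troponin genes Tnnt2 and Tnni2 rose 4.25-fold and 2.94-fold. The part of these marker changes in the Atp2a3 and Atp2a1 readings was not tested.

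Of the 4 plasma membrane pump probes, 1 of Atp2b1 and 1 of Atp2b4 were called lower, and the brighter probe of each gene was not called. Atp2b1 encodes PMCA1, the widely expressed export pump. Its brighter probe (PH_mM_0006961) read 13.19 and 13.28 with berberine and 13.52 and 13.83 in control, a change of -0.44 (SE 0.16) that turned to 0.26 with centred arrays and 0.0028 with 75th percentile scaling. Its other probe (PH_mM_0012758) read 10.83 and 10.78 with berberine and 12.38 and 12.45 in control, 3.06-fold lower (change -1.61, SE 0.12). The second difference kept its sign under all scalings, from -1.79 in the deposited values to -1.22 after centring.

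Atp2b4 encodes PMCA4, another export pump. Its dimmer probe (PH_mM_0002661) read 7.59 and 7.70 with berberine and 8.26 and 8.33 in control, 1.56-fold lower (change -0.65, SE 0.12), a call lost without berberine replicate 1 and without berberine replicate 2. At the brighter probe (PH_mM_0012313) the berberine arrays read 9.74 and 10.08, between the control arrays at 10.32 and 8.85. The control arrays differed more from each other there than the group means did, so the change of 0.32 (SE 0.49) shows no direction, and it was -0.26 in the deposited values.

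The inositol trisphosphate receptors differed by less than 2-fold after quantile normalization, and Itpr1 and Itpr2 by slightly more with centred arrays (1.09 and 1.05 on the log2 scale). Itpr1, the receptor subtype best known from brain, read 11.95 and 11.99 with berberine and 11.39 and 11.15 in control, 1.62-fold higher (change 0.70, SE 0.14). Itpr2, a subtype known from heart and liver, read 11.18 and 11.24 with berberine and 10.64 and 9.98 in control, 1.87-fold higher (change 0.90, SE 0.24). Both were higher on every berberine array than on either control array, and both changes stayed positive in the deposited values, at 0.52 and 0.49, where neither was called. Neither was called without berberine replicate 1 or without berberine replicate 2. Itpr3, a subtype of many dividing and secretory cells, read 10.42 and 10.63 with berberine and 10.94 and 10.73 in control. Its change of -0.31 (SE 0.15) was not called and lay between -0.76 and -0.19 under the other scalings.

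The store sensor Stim1 was lower at both of its probes. The brighter probe (PH_mM_0014218) read 10.67 and 9.70 with berberine and 13.14 and 12.89 in control, 7.12-fold lower (change -2.83, SE 0.34). The other probe (PH_mM_0017433) read 7.64 and 7.75 with berberine and 12.07 and 12.14 in control, 21.2-fold lower (change -4.40, SE 0.12), and its deposited intensities were 156 and 197 with berberine and 5037 and 3946 in control. The groups were far apart at both probes, and the berberine arrays stood closer together at the dimmer one. The call at the brighter probe was lost without control replicate 1, where the change was -2.71. Falls of at least 8-fold were seen at 2.92% of all probes. The 2 Stim1 probes differed in change by 1.57, a span reached by 25.6% of genes with several probes.

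Orai1, the pore that Stim1 opens, went the other way. It read 9.81 and 9.72 with berberine and 8.75 and 9.04 in control, 1.83-fold higher (change 0.87, SE 0.15). Both berberine values lay above both control values, but the change was 0.26 in the deposited values and 0.57 after scaling on the 75th percentile, and it was not called in either, nor without berberine replicate 1 or 2. After centring it was 0.83, where the median of all probes was 0.52.

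**Figure D2:**
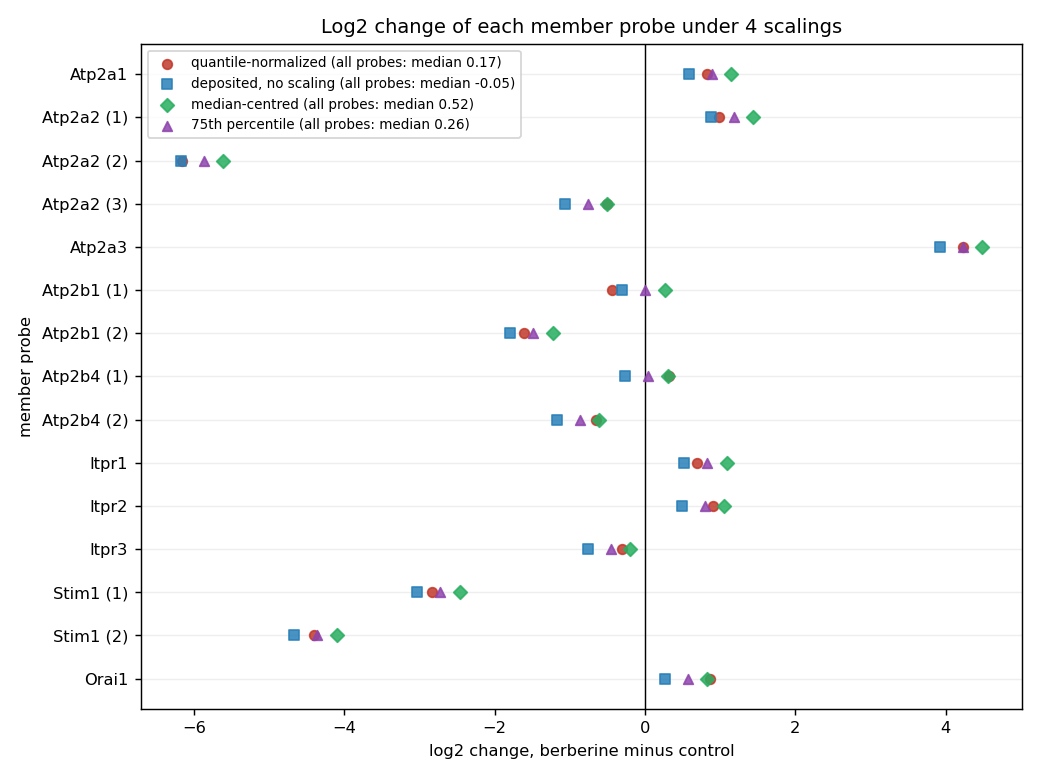
Log2 change, berberine minus control (horizontal axis), of each of the 15 member probes (rows, numbered by brightness within a gene) under 4 scalings, with the median change of all probes in the legend. Atp2a3 stays between 3.92 and 4.49, the Stim1 probes stay between -4.67 and -2.47, and the brightest Atp2b1 and Atp2b4 probes lie on either side of 0 depending on the scaling.

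By the brightest probe of each gene, 6 of the 10 members were called higher and 1 lower, against 30.0% and 18.2% of all 17734 genes. The member called lower was Stim1, and Atp2a2 is among the 6 although its probes disagree. Of the 6, only Atp2a3 was also called higher in the deposited values. Since the members were picked in this comparison, nothing is read from these counts. The median change of the 10 members was 0.76 by this choice, and it was -0.31 over all 15 probes, against 0.20 for all genes and 0.17 for all probes. The difference between these summaries comes from the dimmer probes of Atp2a2, Atp2b1, Atp2b4 and Stim1, all of which had changes below 0.

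Over the 4 arrays, the genes with the pattern closest to Atp2a3 were Ifi44, Rsad2 and Cox6a2. Likeness was the Euclidean distance between mean-centred log2 values among 17733 other genes, and the distances were 0.22, 0.38 and 0.43. Ifi44 and Rsad2 are interferon-stimulated genes and Cox6a2 encodes a muscle form of a respiratory chain subunit. Ifi44 read 14.44 and 14.40 with berberine and 10.65 and 10.02 in control, Rsad2 read 13.09 and 13.38 against 9.16 and 9.05, and Cox6a2 read 11.78 and 11.66 against 8.04 and 7.77. With 4 arrays in 2 groups, this likeness is little more than a change of the same size.

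The rest of the calcium machinery was read from 7 lists ordered by role, which held 149 genes, of which 138 were measured. By the brightest probe of each gene, 32 rose and 35 fell, 23.2% and 25.4% of those measured, against 30.0% and 18.2% of all genes. The median change of the 138 genes was 0.019, against 0.20 for all genes, and it was -0.26 in the deposited values and 0.30 after centring (all genes -0.018 and 0.55). Fewer calls were again made with 1 berberine array left out, among these genes and among all genes, where the spread comes from the control arrays alone. The rises kept without each array in turn were those of Erlin1, Asph, Casq1, Micu3, Cacna1a and Plcb3. How many calls are kept in this way among all genes was not counted. Nothing is therefore read from how the kept calls divide, here or in the single lists below. Genes outside the naming rule are given below where a count was 5 or fewer, or as examples, and were chosen after their values were seen.

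Other pumps and store-entry genes of the same families were partly dim. Of 7 measured, 3 rose and 1 fell, and 4 lay under the floor in both groups. Orai3, an Orai homologue that can take part in store-operated entry, read 6.97 and 6.70 with berberine and 10.96 and 10.63 in control, a 15.6-fold fall (adjusted p = 0.000213) that was kept without each array in turn. Stim2, the sensor that responds to small losses of stored calcium, read 7.99 and 7.87 with berberine and 7.05 and 6.45 in control, a 2.27-fold rise (adjusted p = 0.0131). Atp2c1, the calcium and manganese pump of the Golgi, rose 1.80-fold (adjusted p = 0.0176). The calls of Stim2 and Atp2c1 were lost without either berberine array (adjusted p = 0.0937 to 0.137) and in the deposited values (adjusted p = 0.130 and 0.267). Atp2b3 was the third called higher, from signals under the floor in both groups, and Atp2b2 and Orai2 also lay under it. In this list only Orai3 stayed called without berberine replicate 1 or 2. The ryanodine receptors Ryr1, Ryr2 and Ryr3 were not analysed here.

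Among regulators of SERCA pumps, inositol trisphosphate receptors and store-operated entry, 5 of 25 rose and 4 fell. Hax1, a mitochondrial and reticulum protein that binds the SERCA2 regulator phospholamban, read 9.07 and 8.94 with berberine and 14.41 and 14.76 in control, a 47.8-fold fall (adjusted p = 8.86e-05). S100a1, a calcium-binding protein that modulates SERCA in muscle, fell 3.05-fold (adjusted p = 0.00102). Saraf, which turns store-operated entry off, fell 3.74-fold and Grina 1.73-fold. Stimate was not called at its brightest probe (change 0.024), but its other probe was 15.2-fold lower (adjusted p = 0.00121). Erlin1, which takes part in the breakdown of activated inositol trisphosphate receptors, rose 2.81-fold, Erlin2 1.60-fold, Tmem178 1.80-fold, Homer2 1.38-fold and Asph 2.15-fold. Another Asph probe fell, by 1.63 on the log2 scale (adjusted p = 0.00100). Another Homer2 probe was lower on both berberine arrays than on either control array (change -0.38) but was not called. The SERCA inhibitors Pln (phospholamban) and Sln (sarcolipin) were under the floor in both groups, with adjusted p = 0.274 and 0.873. Without berberine replicate 1 or 2, 5 genes of this list were called in each case.

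Luminal calcium-binding proteins and chaperones of the reticulum had 3 rises and 7 falls among 17 measured. Calr, which encodes calreticulin, the main calcium buffer of the lumen, read 11.21 and 11.54 with berberine and 13.90 and 13.78 in control, a 5.51-fold fall (adjusted p = 0.000558). Pdia4, a disulfide isomerase, read 10.10 and 9.99 with berberine and 14.65 and 14.81 in control, a 25.7-fold fall (adjusted p = 7.85e-05). Rcn1, a reticulocalbin, fell at least 4.60-fold to under the floor (adjusted p = 0.000234), and Hspa5, the chaperone BiP, fell 4.27-fold (adjusted p = 0.000536). Casq1, the calsequestrin of fast muscle, rose 2.57-fold, Pdia3 1.51-fold and Hrc 1.40-fold, although another Casq1 probe, which was dimmer than the floor, was called lower. Canx was not called at its brightest probe (change 0.38), and its other probe was called higher, by 1.90-fold (adjusted p = 0.00853). Hsp90b1, also bright, was not called (change -0.039). The median change of the list was -0.34, where all genes had 0.20, and with centred arrays it turned to 0.21, where all genes had 0.55. Without berberine replicate 1 or 2, 6 genes were called in each case.

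Genes of mitochondrial calcium uptake and release went both ways, with 4 rises and 4 falls among 12 measured. Mcu, the pore of the mitochondrial uniporter, read 9.25 and 9.28 with berberine and 9.43 and 9.94 in control and did not pass (adjusted p = 0.154). It was called lower without control replicate 1 (adjusted p = 0.0280) and with no scaling (adjusted p = 0.0188). The uniporter's inhibitory subunit Mcub rose 3.30-fold and its gatekeepers Micu2 and Micu3 rose 1.74-fold and 2.58-fold, as did the outer membrane channel Vdac3 by 1.46-fold. Smdt1, the essential uniporter subunit EMRE, fell 3.28-fold, and Mcur1, a uniporter regulator, 2.32-fold. Slc8b1, the sodium-calcium exchanger that releases mitochondrial calcium, fell 5.12-fold (adjusted p = 0.000321). Afg3l2, a protease that clears unassembled EMRE, read 6.01 and 5.56 with berberine and 12.49 and 11.91 in control, at least a 49.1-fold fall (adjusted p = 0.000158). The 4 falls were kept without each array in turn, and 1 of the rises, Micu3, was. Without berberine replicate 1, 5 genes of this list were called.

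Of 35 measured exchangers and entry channels of the plasma membrane, 7 rose and 9 fell. The brightest P2rx7 probe, for an ATP-gated channel, read 7.29 and 7.33 with berberine and 12.10 and 11.93 in control, a 26.1-fold fall (adjusted p = 7.70e-05), while the other P2rx7 probes were at or near the floor and 1 of them was called higher. Slc24a5, an exchanger known from internal membranes of pigment cells and counted here with its family, fell 9.61-fold (adjusted p = 0.000237). P2rx4, another ATP-gated channel, fell 21.0-fold, and Cacna1a, a voltage-gated channel subunit known from neurons, rose 3.68-fold. The sodium-calcium exchangers Slc8a1 and Slc8a3 rose 3.24-fold and 3.31-fold and Slc8a2 fell 1.67-fold, and none of these exchanger calls was kept without each array in turn. In this list 5 and 6 genes were called without berberine replicate 1 and 2, and 10 in the deposited values and after scaling on the 75th percentile.

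Phospholipase C enzymes, which make inositol trisphosphate, and the enzymes that process it had 3 rises and 5 falls among 18 measured. Plcd3 fell at least 6.56-fold to under the floor (adjusted p = 0.000141), and Inpp1, an inositol phosphate phosphatase, fell 3.54-fold (adjusted p = 0.00113). Plcb3, an isoform driven by G proteins, rose 3.04-fold, Itpkc, which phosphorylates inositol trisphosphate, 2.40-fold and Plcd4 1.77-fold. Plcb1 fell 1.77-fold and Inpp5a 1.45-fold, and Plcb4 was called lower from signals under the floor. Without berberine replicate 1 and 2, 3 and 4 genes were called, and 5 in the deposited values.

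Calmodulin, calcineurin, NFAT and CaM kinase genes, which read cytosolic calcium, had 7 rises and 5 falls among 24 measured. Calm3, 1 of the genes for calmodulin, read 14.25 and 14.14 with berberine and 15.52 and 15.71 in control, a 2.68-fold fall (adjusted p = 0.00154). Calm2, another calmodulin gene with a brighter probe, was at a mean of 15.95 with berberine and 16.08 in control and was not called (adjusted p = 0.493). Camk2d, a calmodulin-dependent kinase, fell at least 2.40-fold (adjusted p = 0.000682), and Camk1d fell 1.77-fold. Camk2g, brighter than Camk2d, was not called at its brightest probe (change 0.011), while its other probe was 2.99-fold lower. The calcineurin catalytic genes Ppp3ca and Ppp3cb rose 1.93-fold and 1.53-fold, and the regulatory subunit Ppp3r1 fell at least 1.54-fold. Nfatc1 and Nfatc3, factors that calcineurin activates, rose 1.84-fold and 1.77-fold. The other Nfatc1 probes were not called, with changes of 0.51 and -0.59, and the Nfatc1 call was not kept under all scalings. Nfatc4 fell 1.50-fold at its brightest probe and at least 8.89-fold at another, and rose 1.60-fold at the remaining one. Without berberine replicate 1 and 2, 3 and 2 genes of this list were called, all of them lower.

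**Figure D3:**
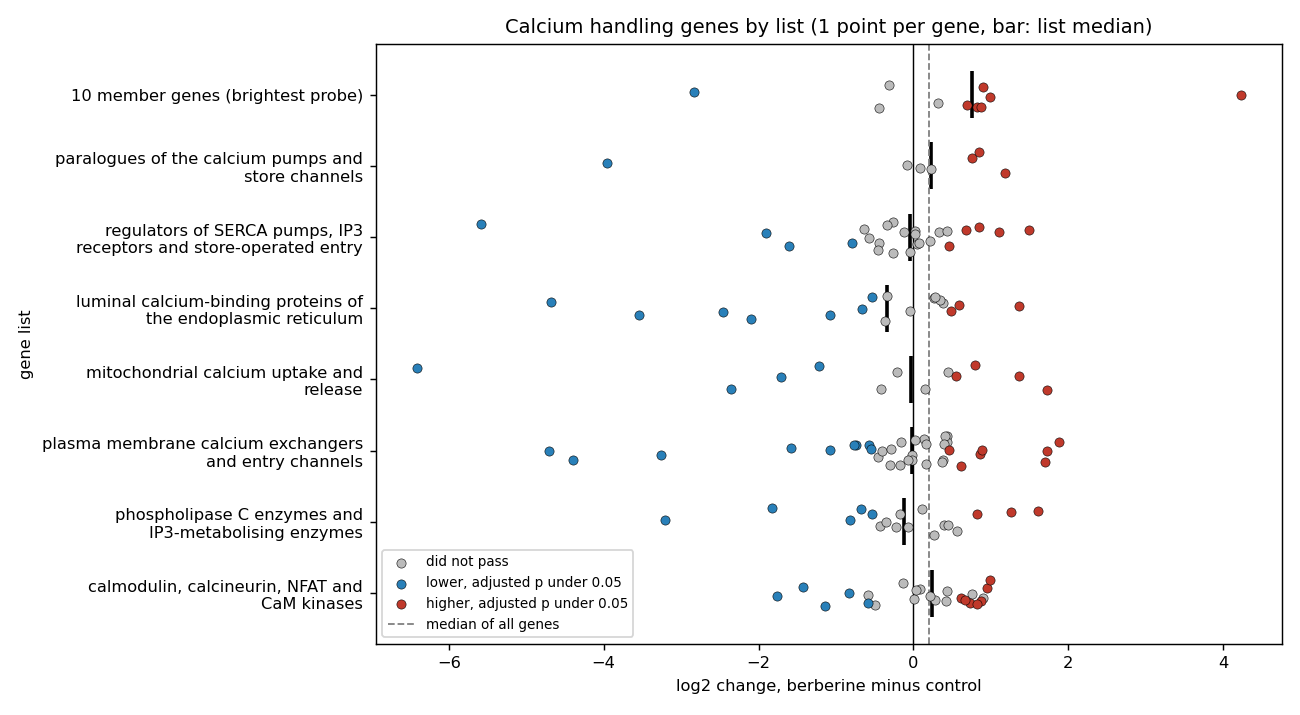
Log2 change, berberine minus control (horizontal axis), of 1 point per gene in the 10 members and in 7 lists of other calcium genes (rows), in red where called higher, blue where called lower and grey where the test was not passed, with black bars for list medians and a dashed line for the median of all genes, 0.20. Atp2a3 is the point farthest to the right at 4.23, and the luminal list has its median at -0.34.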

How the data were processed

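The authors deposited linear probe intensities in whole numbers. Per the labels' protocols, total RNA was extracted with an RNeasy kit and labelled with Cy5. Scanner, background correction and scaling are not stated in the sources, which leaves zero point and scale of the deposited intensity values unknown. Median intensities were 237 and 280 on the berberine arrays and 423 and 350 on the control arrays.

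Groups came from the sample titles. The platform table names 1 gene for 20377 of 26423 probes, several for 0 and none for 6046 (unnamed here). Names matched current mouse symbols for 18213 probes and older ones for 2126, and 38 stayed as given. A value at or under 0 removed 15 probes. Log2 intensities were quantile-normalized and fitted with limma 3.58.1 (R 4.3.3; lmFit, eBayes), with Benjamini-Hochberg adjustment over 26408 probes. The test has 2 residual and 2.89 prior degrees of freedom, and an exact permutation of 2 against 2 arrays cannot go below a two-sided p of 0.333. The number of arrays limits the precision. Arrays of a group differed by a median of 0.088 (berberine) and 0.26 (control) among probes above log2 10 in control. Same-numbered arrays did not deviate together (r = 0.0035 across probes), and no batch is named in the labels. A gene was represented by its brightest probe over all arrays. The floor is the 25th percentile of an array.

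Named were all member probes, up to 2 genes per list with the smallest p among those called with at least a 2-fold change and a group above the floor, 11 measured fixed genes and the 3 nearest patterns to Atp2a3. Members, lists and tests were chosen with earlier results of these data known. The fit was tested on simulated data in which few probes changed, with as many rises as falls. That setting does not test the normalization under the widespread changes seen here. Promoter sequences are from RefSeq, GRCm38.p6. Alternatives covered scaling, the prior, a pseudocount of 16, dim probes, the replicate block and each array left out.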

Additional observations from a re-analysis of the deposited data

How the results depend on the processing

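All alternatives were those listed in advance. The number of probes called was 11838. It was 6687 in the deposited values, 5806 with at least a 2-fold change in addition and 12760 with the replicate block. With each array left out it was 4339 to 10772. The number of member probes called was 11. It was 7 in the deposited values (1 higher, 6 lower), 5 with at least a 2-fold change in addition, 12 with the replicate block and 5 to 12 with each array left out. The number of other calcium genes called was 67. It was 45 in the deposited values (12 higher, 33 lower), 69 after centring (45 higher, 24 lower), 70 with the replicate block and 28 to 62 with each array left out. The lone array of a group is then assumed to vary like the other group. The cause was not tested. Samples share only a number, and the block changed no call of a named gene outside the members. No called member probe and no called gene under the naming rule changed sign under any alternative run. Genes not called could, such as Sln and Orai2, whose changes were -0.13 and -0.0013 in the deposited values. A single probe represents 6 of the 10 members, the zero point of the deposited intensities is unknown, and values near the floor have no order.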
